A study of Mus musculus with 16 samples.

Results

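The tissue dependence of the Eln genotype effect asked whether carrying 1 wild-type Eln allele in place of both moved gene expression differently in the aortic valve and in the ascending aorta. It was measured, for every gene, as the difference between Eln+/- and Eln+/+ in the valve minus the difference between Eln+/- and Eln+/+ in the aorta. All 16 of the 16 arrays of the study entered it, and the groups were taken from the genotype and tissue labels alone. The study profiled mice of 30 days on a whole-genome Affymetrix expression array, in 4 groups of 4 arrays: ascending aorta of Eln+/+ mice, ascending aorta of Eln+/- mice, aortic valve of Eln+/+ mice and aortic valve of Eln+/- mice. The aorta specimens were pieces of the ascending vessel, and the valve specimens held cusp, annulus and root together, so each was a mixture of cell types. Eln+/- mice were heterozygous and Eln+/+ mice were the wild-type controls. The labels name no drug or other agent for any group, animals were not pooled, and the sex of the animals was not among the labels used here. Whether an aorta and a valve came from the same mouse was not stated, so each array was treated as a separate sample.

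Eln encodes tropoelastin, the soluble monomer that is deposited on a fibrillin microfibril scaffold and cross-linked by lysyl oxidases into elastic fibres. In the ascending aorta, elastin is made by smooth muscle cells and forms concentric lamellae that give the wall its recoil. In the aortic valve, elastic fibres lie mainly in the layer of the cusp that faces the ventricle and are made by interstitial cells, while the annulus and root join the cusps to the arterial wall and to the myocardium. Loss of 1 Eln allele causes supravalvular aortic stenosis in people, and mice with 1 allele have a thinner-walled, less distensible aorta with extra lamellae.

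The deposited value of each probe set was a ratio to its own median over the 16 arrays, and the values here are log2 of that ratio, so 0 is the median and 1 log2 unit is a 2-fold ratio. A level relative to its own median cannot be set against that of another gene, and it does not show whether a marker was near 0. The array data hold no read depth. The number of arrays, with a median standard deviation within a group of 0.247 to 0.279 log2 units over probe sets, limited the precision. Xist minus the Y-linked genes, each relative to its own median, was 0.27 to 0.82 on all 4 Eln+/- arrays of each tissue. On 1 of 4 Eln+/+ arrays of each tissue it was similar, at 0.66 in the aorta and 0.84 in the valve. Such values are here called Xist above the Y-linked signal. The other 3 Eln+/+ arrays of each tissue stood at -11.05 to -10.65. The genotype effect on that signal was 8.59 log2 units in the valve and 8.40 in the aorta. In each tissue the genotype effect therefore cannot be told apart from a difference in this signal. The equal numbers do not remove it from the tissue difference where the signal acts differently in the tissues. The 1 Eln+/+ array with Xist above the Y-linked signal was replicate 4 in the aorta and replicate 2 in the valve. Values fitted with this signal are given after the gene lists. The 3' minus 5' signal of the Actb and Gapdh control probe sets, a measure of RNA integrity, had a tissue difference of -0.060.

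No probe set passed for the tissue difference after Benjamini-Hochberg adjustment over 45037 probe sets (limma, 0% at adjusted p under 0.05, smallest adjusted p = 0.338). At an unadjusted limma p under 0.05 there were 3477 probe sets (7.72%). Shown by 1 probe set per gene, 18193 genes were measured, and 1543 of them (8.48%) were under that unadjusted limit. Of these, 887 (4.88%) had a positive tissue difference, meaning that the Eln+/- minus Eln+/+ difference was more positive in the valve than in the aorta, and 656 (3.61%) had a negative one. The genotype effect in each tissue gave 0 probe sets past the adjusted limit too, with 3873 probe sets (8.6%) at an unadjusted limma p under 0.05 in the valve and 2480 (5.51%) in the aorta. The smallest adjusted p was 0.0539 in the valve and 0.751 in the aorta. The mean of the effects in the tissues gave 0 past the adjusted limit and 2841 (6.31%) at an unadjusted limma p under 0.05. Because none of these tests was passed, every gene and list below is given by its values, and no single difference is a call. The lists were chosen with earlier results of these data known. Shares over all genes beside a list are therefore background and not a test of the list.

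Across the 18193 genes, the genotype effects of valve and aorta were nearly uncorrelated, with r = 0.0089 over genes, which are not independent replicates. The effects had a standard deviation over genes of 0.36 log2 units in the valve and 0.30 in the aorta. The median SE of an effect was 0.22 in each tissue, so much of this spread can be sampling error, which pulls r toward 0. The low r therefore does not show whether the tissues share genotype effects. A valve effect of more than 1 log2 unit in size was seen for 336 genes (1.85%) and an aorta effect of that size for 127 (0.698%). The tissue difference exceeded 1 log2 unit in size for 770 genes (4.23%). The genotype groups did not overlap in the valve for 969 genes (5.33%), of which 638 (3.51%) were higher and 331 (1.82%) lower in Eln+/-. In the aorta they did not overlap for 506 genes (2.78%), 250 (1.37%) higher and 256 (1.41%) lower. For 15 genes (0.0824%) the groups were separate in both tissues with opposite signs, and for 4 (0.022%) they were separate in both with the same sign. Groups of 4 arrays can be separate by chance too. Separation is therefore given below as a description of the values and not as a test of a genotype effect. Among the 887 genes with a positive tissue difference at an unadjusted p under 0.05, 598 (67.4%) had their larger genotype effect in the valve, against 53.4% of all genes. The 656 on the negative side were divided more evenly, with 349 (53.2%) larger in the valve. These genes were chosen by the tissue difference itself, and the valve effects had the wider spread over genes. The shares therefore do not show in which tissue a genotype effect lies.

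**Figure D1:**
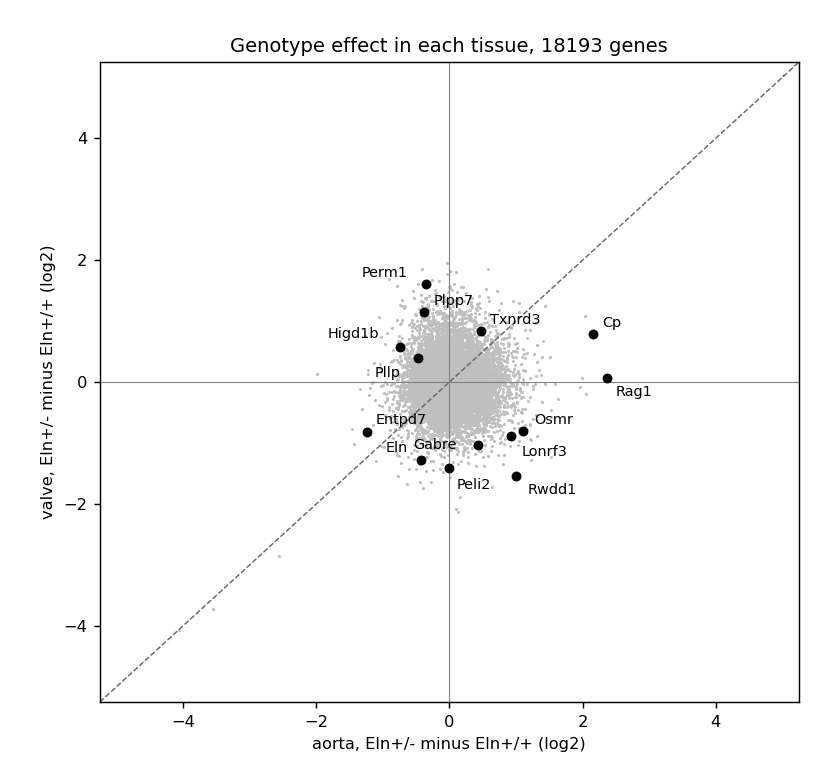
Genotype effect of each of 18193 genes, as mean log2 ratio of Eln+/- minus Eln+/+ arrays, in the aorta (horizontal axis) and in the valve (vertical axis), with 4 arrays in each group. Grey points are genes, the dashed line marks equal effects and black points are genes named in the text. The cloud has no diagonal trend (r = 0.0089) and is somewhat taller than wide (standard deviation 0.36 against 0.30 log2 units). Sampling error in both effects pulls r toward 0.

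Eln itself had lower mean values in Eln+/- than in Eln+/+ samples of both tissues, with an effect of -1.27 log2 units in the valve and -0.42 in the aorta. In the aorta its values were 0.42, 0.48, 0.05 and 0.27 in Eln+/+ and 0.0028, -0.64, 0.13 and 0.04 in Eln+/-. In the valve they were -0.62, -0.0028, 0.04 and -1.19 in Eln+/+ and -2.03, -1.38, -2.62 and -0.81 in Eln+/-. The 3 lowest of all 16 values were valve Eln+/- arrays, but the genotype groups overlapped by 1 array in each tissue: aorta Eln+/- replicate 3 lay inside the Eln+/+ range, and so did valve Eln+/- replicate 4. The tissue difference of Eln was -0.85 ± 0.48 (SE), with a 95% interval of -1.87 to 0.17 and an adjusted p of 0.687 in limma. An exact two-sided permutation of the genotype labels within each tissue, over 4900 assignments, gave p = 0.246 (the smallest it can give is 0.000408). The null of that permutation is no genotype effect in either tissue, which is not the null of equal effects. No conclusion on the tissue difference is therefore drawn from it. A second probe set for Eln gave a tissue difference of -0.39 (exact permutation p = 0.343). Leaving out valve Eln+/- replicate 3 gave -0.55. By the limma fit, a larger Eln deficit in the valve than in the aorta was thus not distinguished from the spread between samples. The limma interval covers differences as large as -1.87.

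The gene with the lowest p for the tissue difference was Perm1, a regulator of mitochondrial biogenesis in heart and skeletal muscle that acts with the PGC-1 coactivators and oestrogen-related receptors. Its values in the valve were 0.32, -0.02, 0.02 and -0.56 in Eln+/+ and 1.53, 1.32, 1.80 and 1.53 in Eln+/-. In the aorta they were -0.53, 0.28, -0.07 and 0.01 in Eln+/+ and -0.44, -0.51, -0.01 and -0.72 in Eln+/-. Every valve Eln+/- array lay above the other 12 arrays, and the aorta groups overlapped. The tissue difference was 1.95 ± 0.30 (SE, limma adjusted p = 0.338), a 3.87-fold ratio of the effects, made of 1.61 in the valve and -0.35 in the aorta. A second Perm1 probe set gave 0.35, a smaller value of the same sign.

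Other genes among the most positive tissue differences included 2 membrane proteins with opposite effects in the tissues. Pllp, plasmolipin, a proteolipid of myelin and epithelial membranes, had values of 0.25, 0.14, 0.30 and 0.31 in aorta Eln+/+ and -0.09, -0.27, -0.25 and -0.31 in aorta Eln+/-. In the valve it had -0.05, -0.27, -0.21 and -0.08 in Eln+/+ and 0.04, 0.28, 0.31 and 0.33 in Eln+/-. Its groups were separate in both tissues, lower in Eln+/- aorta and higher in Eln+/- valve, with a tissue difference of 0.86 ± 0.16 (SE, limma adjusted p = 0.604). Higd1b, a gene used as a marker of pericytes, had values of -0.94, -0.59, -0.59 and -0.24 in aorta Eln+/-, all below the aorta Eln+/+ values of 0.20, 0.35, 0.20 and -0.14. In the valve its Eln+/- values of 0.70, -0.10, 0.67 and 0.91 overlapped the Eln+/+ values of -0.15, 0.36, -0.40 and 0.09 by 1 array. The tissue difference of Higd1b was 1.31 ± 0.31 (SE, limma adjusted p = 0.619). Plpp7, a phospholipid phosphatase relative of the nuclear envelope in muscle, stood at 1.13, 1.34, 1.17 and 0.14 in valve Eln+/-, above the highest valve Eln+/+ value of 0.13 by a narrow margin in replicate 4, and its tissue difference was 1.53. Cant1, a nucleotidase of the Golgi needed for proteoglycan synthesis, was separate in both tissues with effects of 0.58 in the valve and -0.35 in the aorta. For Cant1 the other 2 probe sets gave -0.06 and 0.11, and for the RNA-binding protein gene Hnrnpab, at 0.95, the other 6 gave -0.33 to 0.07. Those 2 results therefore rested on 1 probe set each.

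The most negative tissue differences came mainly from genes lower in the Eln+/- valve and higher in the Eln+/- aorta. A choice by the valve effect minus the aorta effect favours such opposite signs by itself. At an unadjusted limma p under 0.05, opposite signs were seen in 94.8% of the negative genes and 94.3% of the positive ones. Over all genes the share was 52.6%. Gabre encodes a subunit of the GABA-A receptor. Its values were -0.83, -1.38, -1.14 and -0.95 in valve Eln+/-, 0.01, -0.01, -0.25 and 0.08 in valve Eln+/+, 1.08, -0.12, 0.66 and 0.52 in aorta Eln+/-, and 0.23, 0.10, 0.22 and -0.14 in aorta Eln+/+. The valve Eln+/- arrays were the 4 lowest of the 16, and the aorta groups overlapped. The tissue difference of Gabre was -1.46 ± 0.29 (SE, limma adjusted p = 0.619). Rwdd1, a partner of the DRG family of GTP-binding proteins, had a tissue difference of -2.54 ± 0.53 (SE, limma adjusted p = 0.619). Its Eln+/- arrays lay below every Eln+/+ array in the valve and above every Eln+/+ array in the aorta, but its other probe set gave 0.67, the opposite sign. Armcx1, a mitochondrial outer membrane protein that takes part in axonal transport of mitochondria, was also separate in both tissues. Its values were 0.11, 0.86, 0.36 and 0.26 in aorta Eln+/- against -0.23, -0.37, 0.05 and -0.05 in aorta Eln+/+, and -0.41, -0.35, -0.13 and -0.17 in valve Eln+/- against 0.70, 0.09, -0.07 and 0.19 in valve Eln+/+.

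Several genes of this direction differed in the aorta more than in the valve. Usp1, a deubiquitinase of DNA repair, had an effect of 0.92 in the aorta with separate groups and of -0.37 in the valve with overlapping groups, and all 3 of its probe sets had a negative tissue difference. Tbc1d19 (aorta 0.76, valve -0.41) and the zinc finger gene Zfp626 (aorta 0.86, valve -0.50) were likewise separate in the aorta and overlapping in the valve. The tissue difference was -1.17 for Tbc1d19 and -1.35 for Zfp626, and their other probe sets gave -0.50 and -0.19. Mynn, a zinc finger transcription factor, was separate in the aorta and overlapping in the valve as well, but its effect was larger in the valve (aorta 0.80, valve -1.35). Its tissue difference was -2.15, with -1.32 to -0.02 for its other probe sets. Osmr, the receptor subunit for oncostatin M, ranged from -1.73 to -0.64 in aorta Eln+/+ and from -0.42 to 0.72 in aorta Eln+/-, while in the valve its Eln+/- values of -0.29 to 0.96 overlapped Eln+/+ values of 0.46 to 1.51. The other 2 Osmr probe sets gave tissue differences of -0.86 and 0.29. Peli2, a ubiquitin ligase of Toll-like and interleukin-1 receptor signalling, was different in kind. It ranged from -1.92 to -0.92 in valve Eln+/- against -0.34 to 0.49 in valve Eln+/+, and its aorta effect was 0.00023. Its tissue difference of -1.40 therefore came from the valve, and its other 2 probe sets gave -0.85 and -0.74.

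In 4 genes the genotype groups were separate in both tissues in the same direction. Txnrd3, a thioredoxin and glutathione reductase, was higher in Eln+/- by 0.84 in the valve and 0.47 in the aorta. Its values were -0.16, 0.03, 0.23 and 0.11 in valve Eln+/- against -0.87, -1.05, -0.56 and -0.68 in valve Eln+/+, and 0.56, 0.13, 0.15 and 0.69 in aorta Eln+/- against -0.03, -0.03, 0.03 and -0.33 in aorta Eln+/+. Tbc1d7, a subunit of the TSC complex that restrains mTORC1, was higher by 0.53 and 0.42. Entpd7, a nucleotidase of intracellular membranes, was lower in Eln+/-, with effects of -0.81 in the valve and -1.23 in the aorta, and so was Cep57l1, a relative of a centrosomal protein, with -0.96 and -0.49. Their tissue differences lay between -0.47 and 0.43 (limma adjusted p of 0.704 to 0.933), and for each of the 4 at least 1 other probe set had a tissue difference of the opposite sign.

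**Figure D2:**
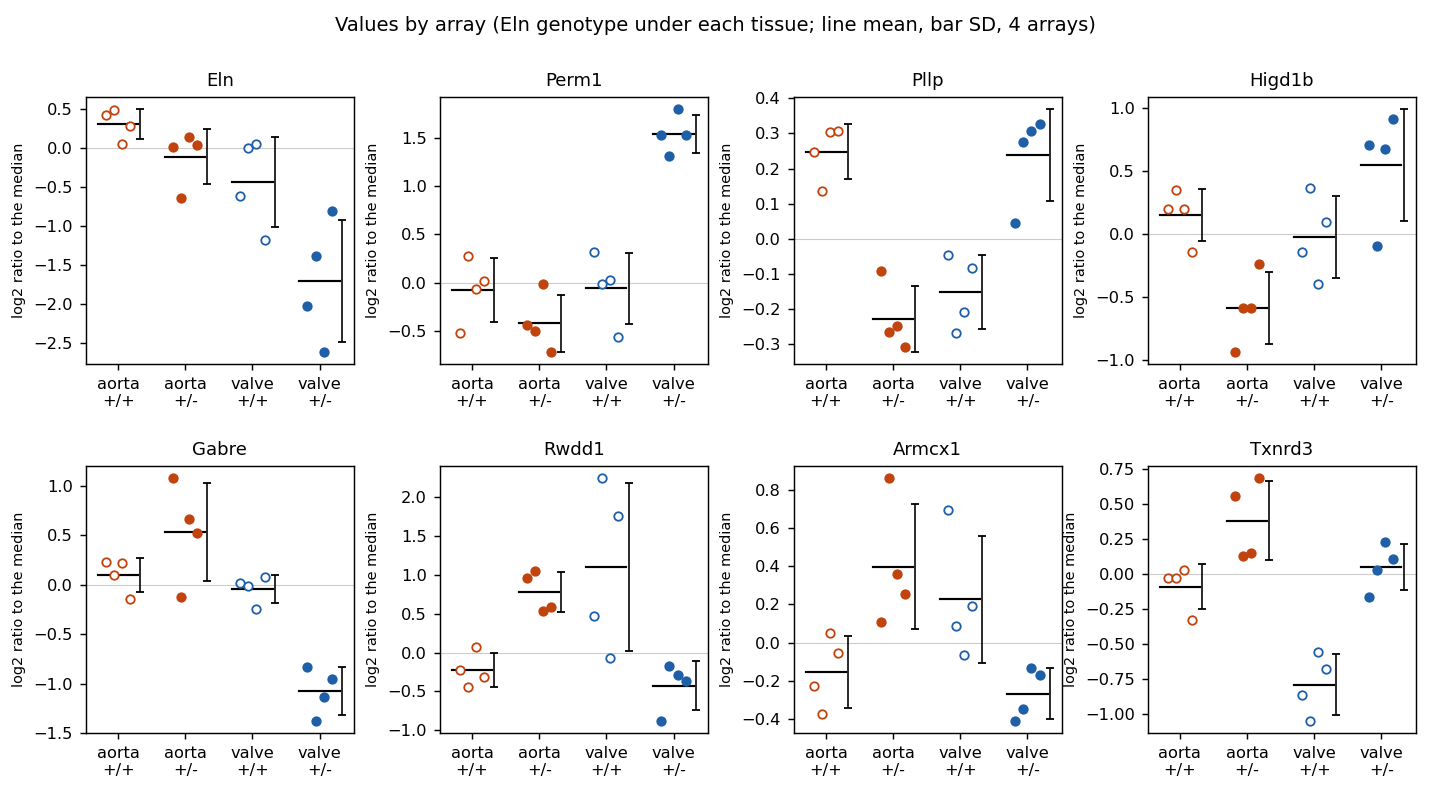
Log2 ratio to the median over the 16 arrays for 8 genes, with 1 point per array, the group mean as a line and the SD as a bar (n = 4 arrays), open points for Eln+/+ and filled points for Eln+/-. Perm1 and Gabre set the valve Eln+/- arrays apart, Pllp, Rwdd1 and Armcx1 have separate groups with opposite signs in the tissues, and Txnrd3 has separate groups with the same sign.

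Cardiac muscle markers had the most positive list median. The valve annulus borders on myocardium. The means of the 24 listed genes were 0.86 ± 0.40 (SD, n = 4) in valve Eln+/+ and 1.76 ± 0.38 in valve Eln+/-, against -2.60 ± 1.03 and -2.61 ± 1.18 in aorta Eln+/+ and Eln+/-. By array the valve means were 0.84, 0.46, 0.73 and 1.42 in Eln+/+ and 1.85, 1.45, 2.25 and 1.48 in Eln+/-, with no overlap. Of the 24 genes, 23 had a positive tissue difference, against 54.8% of all genes, with a median of 1.02 against 0.044 over all genes. In these bulk specimens, more cells of a type and more RNA per cell cannot be told apart, and the share of myocardium in each valve specimen is not known. The median was 0.39 without aorta Eln+/+ replicate 2, 0.63 without aorta Eln+/- replicate 4 and 1.58 without aorta Eln+/- replicate 3.

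The cardiac genes had unlike values, and no contrast between them was tested. Nppb, the B-type natriuretic peptide, stood at 0.89, 2.04, 2.48 and 2.51 in valve Eln+/- and at -0.22, 0.81, 0.07 and 1.30 in valve Eln+/+, overlapping by 1 array, and at -0.73 to 0.04 on all aorta arrays, with a tissue difference of 1.51 ± 0.50 (SE, limma adjusted p = 0.619). Ckm, the muscle creatine kinase, stood at 1.42, 0.98, 1.90 and 1.24 in valve Eln+/- and at 0.01, 0.27, 0.29 and 0.53 in valve Eln+/+, which did not overlap, and its tissue difference was 1.26. Atp2a2, the calcium pump of the sarcoplasmic reticulum, had a tissue difference of 1.11, and Cox6a2, the heart and muscle isoform of a cytochrome oxidase subunit, 1.35. The other Atp2a2 probe sets gave 0.07 to 0.76. By contrast, 4 genes chosen after their values were seen because they are typical of atrial muscle had tissue differences near 0: -0.11 for the atrial natriuretic peptide gene Nppa, 0.02 and 0.07 for the myosin light chains Myl4 and Myl7, and 0.09 for sarcolipin, Sln. The other probe sets of Myl4 and Sln gave 0.53 and 0.60. By the shown probe sets, the 4 genes were higher in Eln+/- in both tissues, by 0.63 to 0.81 in the valve and 0.60 to 0.89 in the aorta, with overlapping groups. Valve Eln+/- replicate 4 had 0.86 for Nppa, 0.82 for Myl4, 0.82 for Myl7 and 0.98 for Sln, below the other 3 valve Eln+/- arrays, whose Sln values were 3.20 to 4.33, although its cardiac list mean of 1.48 was close to the 1.45 of replicate 2. The mix of cardiac genes thus differed between valve specimens of the same genotype. Without valve Eln+/- replicate 4 the tissue differences were 0.62 for Nppa, 0.53 for Myl4, 0.67 for Myl7 and 0.80 for Sln. The values near 0 therefore depended on that array.

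Genes of oxidative phosphorylation, the respiratory chain and ATP synthase of mitochondria, had a positive tissue difference in 21 of 21 measured members, with a median of 0.87, and 9 of them were at an unadjusted limma p under 0.05 (4.88% of all genes were, in that direction). None passed after adjustment, and the smallest adjusted p in the list was 0.626. The median effect was 0.81 in the valve and -0.08 in the aorta, and the valve groups did not overlap for 14 of 21 genes (3.51% of all genes). Cyc1, cytochrome c1 of complex III, stood at 0.74, 0.73, 1.46 and 0.74 in valve Eln+/- and at 0.03, -0.27, 0.07 and 0.59 in valve Eln+/+. In the aorta it stood at -0.49, -0.37, -0.76 and 0.95 in Eln+/+ and at -0.83, -0.03, -0.23 and -1.40 in Eln+/-. Its valve groups were separate and its aorta groups overlapped, with aorta Eln+/+ replicate 4 far above the other 3 of that group, and the tissue difference was 1.27 ± 0.50 (SE, limma adjusted p = 0.628). Ndufv1, a core subunit of complex I, had 1.24, and the ATP synthase subunit genes Atp5a1 and Atp5j had 0.93 and 0.59, each with separate valve groups. The other Atp5a1 probe sets gave 0.29 and 0.16. Without aorta Eln+/+ replicate 4, the only Eln+/+ aorta with Xist above the Y-linked signal, the list median was 0.50. With the sex-linked signal fitted with a slope per tissue it was 1.98.

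Fatty acid oxidation genes and the regulators of mitochondrial transcription had values on the same side. Of 20 fatty acid oxidation genes 19 had a positive tissue difference, with a median of 0.72, but only Acads, an acyl-CoA dehydrogenase, was at an unadjusted limma p under 0.05 in this list, which is a share near the 4.88% of all genes. Acads stood at 0.08, 0.11, 0.82 and 0.41 in valve Eln+/- and at -0.45, -0.28, -0.34 and 0.06 in valve Eln+/+, a narrow separation. The list means of the aorta arrays ran from -1.0 to 1.01 in Eln+/+ and from -0.78 to 0.68 in Eln+/-, so the aorta side of this comparison was wide, and the median was 0.33 without aorta Eln+/+ replicate 4 and 2.13 with the sex-linked slope per tissue. Fabp3, the heart fatty acid binding protein, had a tissue difference of 1.33, Etfdh, which passes electrons to ubiquinone, 0.80, and Eci2, an enoyl-CoA isomerase, 0.61. The other probe set of Fabp3 gave 0.83 and that of Etfdh 0.04. Of 13 mitochondrial regulators 12 were positive, with a median of 0.62, Perm1 at the top. Esrrb, an oestrogen-related receptor, stood at 1.28, 1.31, 1.44 and 0.18 in valve Eln+/-, and at -0.14 to 0.51 in valve Eln+/+, so that 3 of the 4 valve Eln+/- arrays were above all others. Polrmt, the mitochondrial RNA polymerase, had a tissue difference of 1.18, with 0.46 for its other probe set. Nrip1, a corepressor of oxidative genes, had 1.02, while its other 5 probe sets ran from -0.51 to 0.05. The regulator median was 0.36 to 0.40 when aorta Eln+/+ replicate 4, aorta Eln+/- replicate 4, valve Eln+/+ replicate 1 or valve Eln+/- replicate 3 was left out.

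Glycolysis and hypoxia genes were mixed, with 12 of 17 positive and a median of 0.35. Aldoa, aldolase A, stood at 0.59, 0.37, 0.90 and 0.58 in valve Eln+/-, above the valve Eln+/+ values of -0.05, 0.05, 0.13 and 0.30, and its tissue difference was 0.68, with 0.51 to 0.71 for its other 4 probe sets. Hexokinase 2, Hk2, had 0.70 and triosephosphate isomerase, Tpi1, 0.66. Ndrg1, a hypoxia-induced gene, was on the other side at -0.86, made mainly of higher values in the Eln+/- aorta. The list median was 0.21 without aorta Eln+/+ replicate 4 and 0.59 without aorta Eln+/- replicate 2. Skeletal muscle markers were positive in 17 of 20 genes with a median of 0.31. Among them the perinatal myosin gene Myh8 had 0.60 with separate valve groups, and Myh2, a fast myosin, had 0.40.

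**Figure D3:**
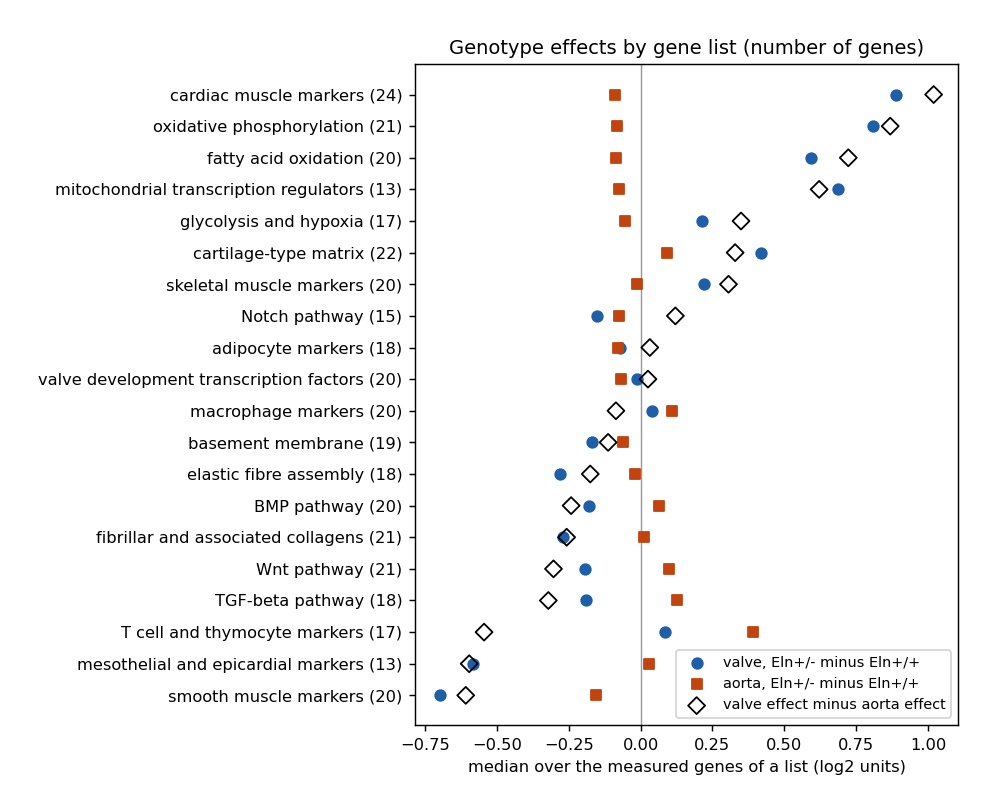
Median over the measured genes of 20 lists (number of genes in brackets) of the genotype effect in the valve (circles), in the aorta (squares) and of their difference per gene (diamonds), in log2 units. Cardiac and mitochondrial lists lie at 0.62 to 1.02 for the difference with aorta medians near -0.08, and smooth muscle and mesothelial markers at -0.61 and -0.60.

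Smooth muscle markers were on the negative side. Of 20 genes 15 had a negative tissue difference (45.2% of all genes did), with a median of -0.61, made of -0.70 in the valve and -0.16 in the aorta, and 17 of 20 were lower in Eln+/- in each tissue (45% of all genes were in the valve and 52.7% in the aorta). Acta2, smooth muscle actin, stood at -1.17, -1.0, -3.20 and -1.04 in valve Eln+/- and at -0.36, 0.86, -0.16 and -1.11 in valve Eln+/+, and its aorta effect was 0.00073. Replicate 3 of the Eln+/- valves was far below the others, and replicate 4 of the Eln+/+ valves overlapped the Eln+/- range. The tissue difference of Acta2 was -1.41, with -0.86 and -0.24 for its other probe sets. Ppp1r14a, an inhibitor of myosin phosphatase, was the 1 listed gene whose valve groups were separate and lower in Eln+/- (1.82% of all genes were), at -1.64, -0.50, -1.68 and -0.72 against -0.44, 0.31, -0.0036 and -0.24, with a tissue difference of -0.89. Synpo2, an actin-associated protein, had -0.77, with 1 of its other 3 probe sets of the opposite sign at 0.20. Des, desmin, which cardiac muscle also makes, had 1.25, with separate valve groups in the opposite direction. The list mean of valve Eln+/- replicate 3 was -1.44 against -0.88 to -0.29 in the other 3, and the median was -0.29 without that array. The cardiac mean of the same array, 2.25, was the highest of the 16; the part of myocardial content in the smooth muscle values was not tested beyond the covariate fits given below.

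The elastic fibre genes had small differences. Of 18 measured members, Eln included, 14 had a negative tissue difference, with a median of -0.18, and 1 was at an unadjusted limma p under 0.05 (3.61% of all genes were, in that direction), a share near the background. That gene was Lox, lysyl oxidase, which cross-links elastin and collagen. It stood at -1.64, -0.24, -2.17 and -0.67 in valve Eln+/-, at -0.68, -0.14, -0.31 and -0.77 in valve Eln+/+, at 0.44, 1.18, 0.49 and 1.00 in aorta Eln+/- and at 0.49, 0.51, 0.13 and 0.57 in aorta Eln+/+. The groups overlapped in both tissues, 2 valve Eln+/- arrays were the lowest, and the tissue difference was -1.06 ± 0.47 (SE, limma adjusted p = 0.636), with -0.76 to -0.40 for its other 2 probe sets. The microfibril-associated genes Mfap4 and Mfap5 had -0.45 and -0.40. The list median was nearest 0, at -0.07, without valve Eln+/+ replicate 3, and farthest, at -0.34, without aorta Eln+/- replicate 4; it was -0.09 without valve Eln+/- replicate 3.

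Collagens and other matrix genes had small medians. Of 21 fibrillar and associated collagen genes 17 had a negative tissue difference, with a median of -0.26, which was -0.08 without valve Eln+/- replicate 3. Col1a2, a chain of type I collagen, had -0.70 and Plod2, a collagen lysyl hydroxylase, -0.69. The other Col1a2 probe sets gave -0.28 and -0.16. Basement membrane genes were divided, 8 positive and 11 negative, with a median of -0.11. The type IV collagen chains Col4a4 and Col4a3 had -0.78 and -0.85, with 2 of 4 aorta Eln+/- arrays above the aorta Eln+/+ arrays, and Lamb1, a laminin chain, had 1.52, where a single aorta Eln+/+ array stood at 2.11. The other 3 Lamb1 probe sets gave 0.26, 0.32 and -0.02, so that value rested on 1 probe set. The basement membrane median turned to 0.06 without aorta Eln+/- replicate 3 and reached -0.37 without aorta Eln+/- replicate 2. Cartilage-type matrix genes, which valve interstitial cells and chondrocytes share, were positive in 14 of 22 with a median of 0.33. Among them Sox9, the transcription factor of the chondrocyte programme, had 0.53, with 0.29 and -0.05 for its other 2 probe sets, and Col11a2, a chain of type XI collagen, had -0.59. Col9a2, a chain of type IX collagen, had 0.44 and Cnmd, chondromodulin, 1.14, with Cnmd values of 2.91, 1.16, 0.19 and 1.77 in valve Eln+/- against 0.92, 0.59, -0.24 and 0.06 in valve Eln+/+. The Cnmd groups overlapped through valve Eln+/- replicate 3. Adamts5, a versican- and aggrecan-cleaving protease, had -1.20 and was higher in every aorta Eln+/- array than in any aorta Eln+/+ array, 1 of them at 1.76. Gpc3, a cell-surface proteoglycan, had -1.04.

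Among the signalling pathways, Wnt genes had the most members at an unadjusted limma p under 0.05, 3 of 21, all negative (3.61% of all genes were, in that direction). In all, 16 of 21 Wnt genes had a negative tissue difference, with a median of -0.30. The ligand Wnt5a stood at -0.91, 0.36, -0.58 and -0.75 in valve Eln+/- and at 0.03, 1.80, 0.21 and -0.03 in valve Eln+/+, overlapping through replicate 2 of the Eln+/- valves, and its tissue difference was -1.30, with -0.62 to -0.42 for 3 other probe sets. The ligands Wnt9b and Wnt5b had -0.74 and -0.84, and the other probe set of Wnt9b gave 0.035. Axin2, a feedback inhibitor and common readout of beta-catenin signalling, had -1.30 ± 0.41 (SE, limma adjusted p = 0.619), and the difference lay in the aorta. It stood at -1.21, -1.52, -0.51 and -0.65 in aorta Eln+/+ and at -0.16, 0.57, -0.07 and -0.42 in aorta Eln+/-, which did not overlap. In the valve it stood at 1.30, 0.37, 0.06 and 0.79 in Eln+/+ and at 0.28, 0.63, 0.28 and -0.06 in Eln+/-, which did. A second Axin2 probe set gave -0.29, and the list median was -0.49 without valve Eln+/- replicate 4.

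TGF-beta and BMP genes had negative medians as well. Of 18 TGF-beta pathway genes 13 were negative, with a median of -0.32 (-0.20 without valve Eln+/- replicate 3). The ligand Tgfb3 was higher on each aorta Eln+/- array (0.12 to 0.25) than on any aorta Eln+/+ array (-0.42 to 0.04), with overlapping valve groups and a tissue difference of -0.58. Tgfbr1, the type I receptor, had -0.84, with -0.73 and -0.22 for its other 2 probe sets. Of 20 BMP pathway genes 12 were negative, with a median of -0.24 (-0.16 without aorta Eln+/+ replicate 1 and -0.15 without valve Eln+/+ replicate 4). The receptor Bmpr1b stood at -2.25, -2.52, -3.39 and -2.34 in valve Eln+/- and at -2.52, -0.18, -0.56 and -1.01 in valve Eln+/+, so that 1 Eln+/+ valve lay among the Eln+/- valves. Its aorta effect was 0.0092 and its tissue difference -1.57, but 1 of its other 2 probe sets had the opposite sign at 0.26. Smad5, which carries the BMP signal to the nucleus, had -1.11, again with another probe set of the opposite sign.

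Notch genes went in both directions, 9 of 15 positive with a median of 0.12, which ranged from -0.08 without aorta Eln+/- replicate 4 to 0.16 without valve Eln+/+ replicate 1. It was -0.06 without aorta Eln+/+ replicate 4, -0.03 without valve Eln+/+ replicate 2 and 0.01 without valve Eln+/+ replicate 4, and 0.06 to 0.08 without aorta Eln+/+ replicate 3 or valve Eln+/- replicate 1, 3 or 4. At an unadjusted limma p under 0.05 there were 2 of 15, both positive (4.88% of all genes were). Jag2, a ligand, with a tissue difference of 0.74, stood at 0.43, 0.42, 0.64 and -0.02 in valve Eln+/- and at -0.14, -0.24, -0.13 and 0.12 in valve Eln+/+, overlapping by 1 array. Dll4, the ligand of arterial endothelium, had 0.69, of which -0.49 was the aorta effect and 0.20 the valve effect. Valve development transcription factors were evenly divided, 10 positive and 10 negative, with a median of 0.03, which had no settled sign: it ran from -0.06 without aorta Eln+/+ replicate 2 to 0.11 without aorta Eln+/- replicate 3. Tbx5, a T-box factor of the heart that cardiomyocytes also express, stood at 2.83, 2.01, 3.01 and 0.84 in valve Eln+/- and at 0.84, 0.24, 0.70 and 1.79 in valve Eln+/+, with a tissue difference of 1.60, and valve Eln+/- replicate 4, the array with low atrial genes, was again the low one. Tbx3, a related repressor, had 1.41, with 0.06 to 1.51 for its other probe sets.

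Markers of neighbouring tissues were read in the same way. Of 13 mesothelial and epicardial markers 12 had a negative tissue difference, with a median of -0.60, made of -0.58 in the valve and 0.03 in the aorta. Wt1, the transcription factor of the epicardium and mesothelium, stood at -0.63, 0.13, -0.15 and -0.24 in valve Eln+/- and at 1.12, 0.73, 1.38 and 0.71 in valve Eln+/+, which were separate, while aorta Eln+/- ran from -0.59 to 1.75 around aorta Eln+/+ values of -0.64 to 0.40. Its tissue difference was -1.78 ± 0.56 (SE, limma adjusted p = 0.619). Gpm6a, a membrane glycoprotein that mesothelium makes, was also separate in the valve, with -1.28, and Krt18, a simple-epithelium keratin, and Tbx18, an epicardial T-box factor, had -0.91 and -0.76. Arrays of 1 group differed widely in the list mean, from -1.02 to 0.95 in aorta Eln+/- and from -0.59 to 0.88 in valve Eln+/+. The median was -0.31 without valve Eln+/+ replicate 3, -0.37 without aorta Eln+/- replicate 2, and -0.97 without either aorta Eln+/- replicate 4 or valve Eln+/+ replicate 4.

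T cell and thymocyte markers had a median of -0.54, with 12 of 17 negative, and this came from 2 aorta Eln+/- arrays. Rag1, a recombinase of developing lymphocytes, stood at -0.05, 5.06, 0.68 and 3.15 in aorta Eln+/- and between -0.54 and 0.17 on the other 12 arrays. Themis, a thymocyte signalling protein, stood at 3.49 and 2.71 on the same replicates 2 and 4, with a tissue difference of -1.62 (-0.37 to 0.09 for its other 3 probe sets). The tissue differences of Rag2 and the interleukin-7 receptor gene Il7r were -0.66 and -0.57. For Rag2 the effect was larger in the valve (-0.40) than in the aorta (0.26), and its tissue difference was -0.53 without aorta Eln+/- replicate 2. Without both aorta Eln+/- replicates 2 and 4 the list median was 0.01, and without replicate 2 or 4 alone it was -0.23 or -0.34. Macrophage and adipocyte markers had medians of -0.09 and 0.03, with 8 of 20 and 9 of 18 positive, and neither median had a settled sign. The macrophage median ran from -0.34 without aorta Eln+/- replicate 4 to 0.37 without aorta Eln+/- replicate 2, and the adipocyte median from -0.54 without aorta Eln+/+ replicate 4 to 0.32 without aorta Eln+/+ replicate 2.

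**Figure D4:**
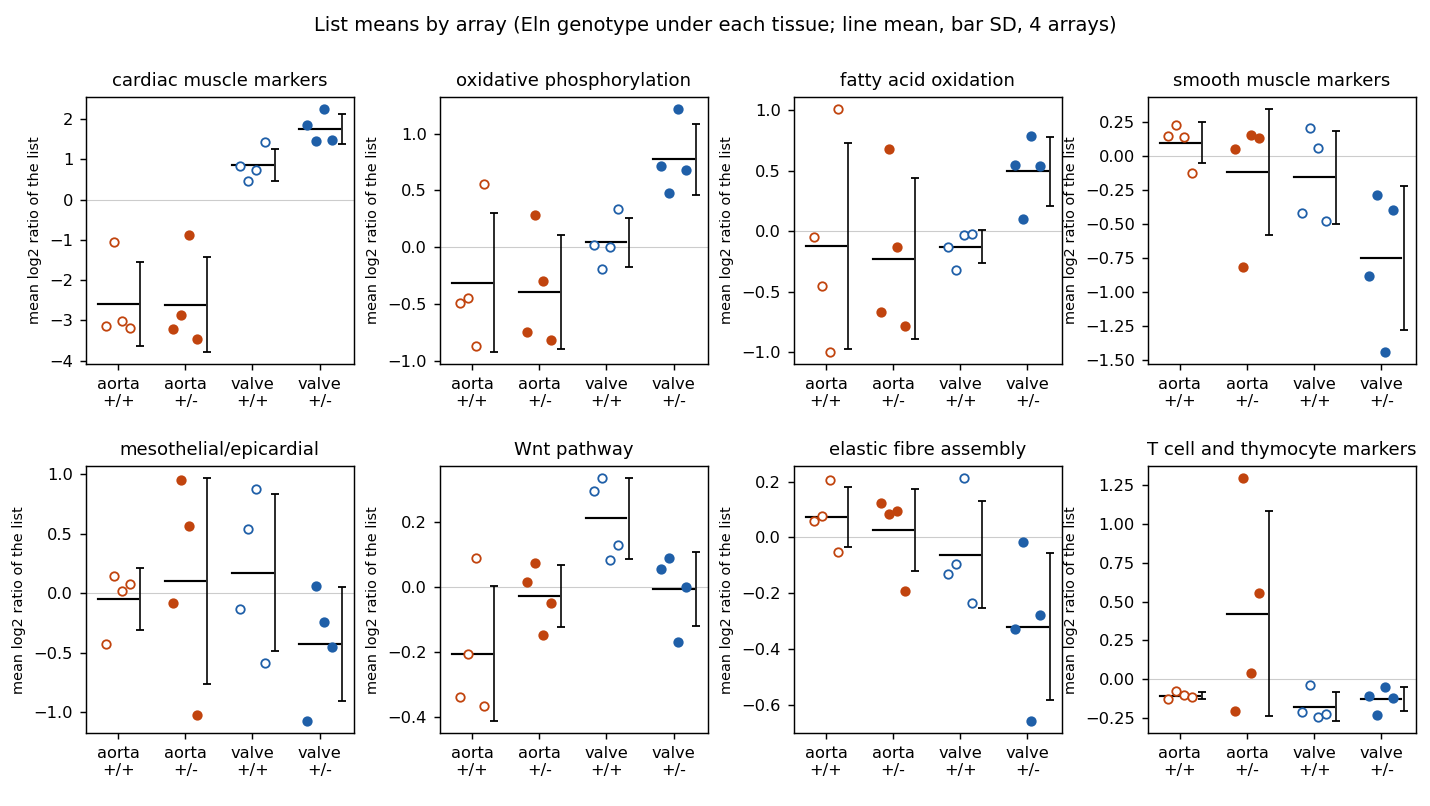
Mean log2 ratio over the measured genes of 8 lists on each array, with the group mean as a line and the SD as a bar (n = 4 arrays), open points for Eln+/+ and filled points for Eln+/-. Cardiac and oxidative phosphorylation means are higher on all 4 valve Eln+/- arrays than on any valve Eln+/+ array, while in the aorta the groups overlap, and 2 aorta Eln+/- arrays stand apart in the T cell panel.

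The mean of the cardiac list, which was separate between the valve genotypes, was entered as a covariate in the limma fit. With 1 slope for all arrays, to which the aorta arrays with their wider spread within groups give the most weight, the median of oxidative phosphorylation was 0.80 and that of fatty acid oxidation 0.71, and smooth muscle was at -0.50 and mesothelial markers at -0.69. With a slope for each tissue, which fits the spread of cardiac content within the valve arrays, oxidative phosphorylation was at 0.22, fatty acid oxidation at 0.32, mitochondrial regulators at 0.27 and glycolysis at 0.24. Under the same fit, smooth muscle turned to 0.59, elastic fibre genes to 0.19, collagens to 0.19, basement membrane to 0.40, TGF-beta to 0.06 and mesothelial markers to 0.03, Wnt was at -0.06, and Eln was at 0.60. With 4 arrays in each group and no overlap between the valve groups in the cardiac mean, this covariate and the genotype of the valve are nearly the same contrast, so these values cannot be told apart from a genotype effect.

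The sex-linked signal, Xist minus the Y-linked genes, was entered in the same way. With a slope for each tissue, each genotype effect rests largely on the 1 Eln+/+ array of that tissue with Xist above the Y-linked signal, since the other 3 differ from all Eln+/- arrays in that signal. Under this fit the median of oxidative phosphorylation was 1.98, that of fatty acid oxidation 2.13, that of mitochondrial regulators 0.97 and that of cardiac markers 0.70. Adipocyte markers were at 1.66, macrophage markers at 0.36, cartilage-type matrix at 0.21, Notch at 0.06 and skeletal muscle markers at -0.01. Smooth muscle was at -1.21, mesothelial markers at -0.97, TGF-beta at -0.67, Wnt at -0.57, collagens at -0.43, elastic fibre genes at -0.32 and basement membrane at -0.31, and Eln was at -1.33. The sizes of these list medians therefore depended on how the sex-linked signal was treated, and those of skeletal muscle and macrophage markers turned sign.

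**Figure D5:**
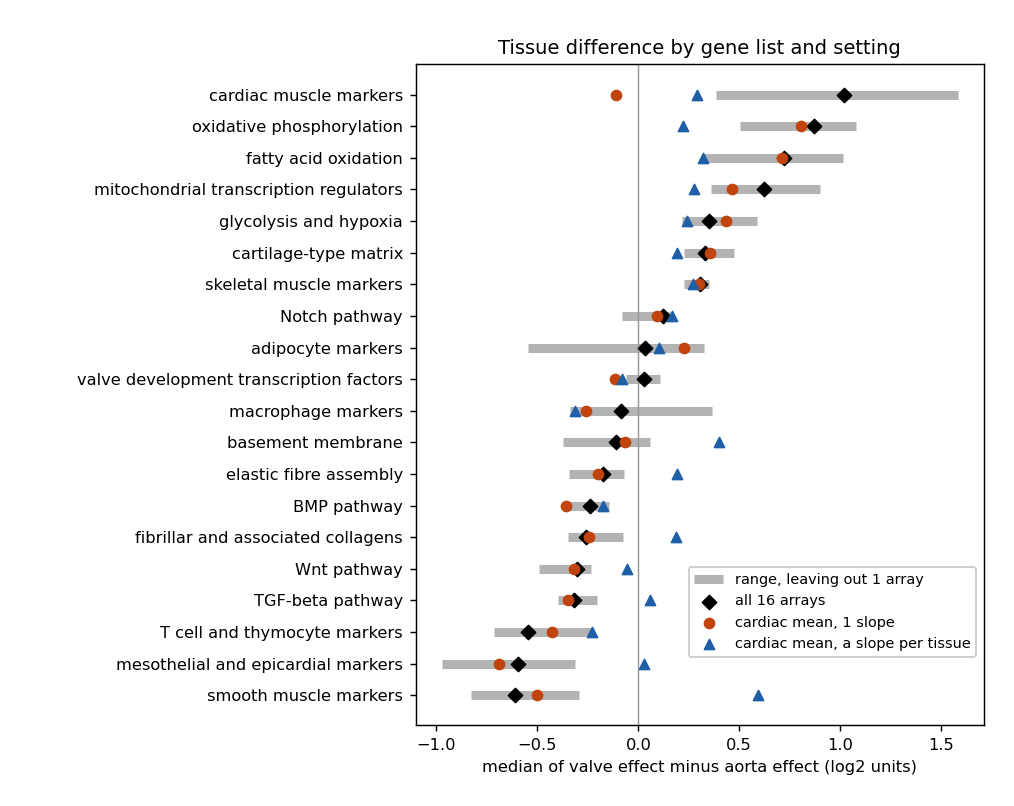
Median tissue difference of 20 gene lists (log2 units) with all 16 arrays (diamonds), as the range over fits that leave out 1 array (grey bars), and in fits that include the mean of the cardiac list, with 1 slope (circles) or a slope per tissue (triangles). Oxidative phosphorylation stays above 0 in all of these, whereas smooth muscle lies below 0 except with a slope per tissue, at 0.59.

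A few genes outside those groups were among the lowest p of their lists. Cybrd1, a ferric reductase, stood at -1.81, -1.53, -2.05 and -1.20 in valve Eln+/- and at -0.19, 0.12, 0.47 and -0.49 in valve Eln+/+, which were separate, with overlapping aorta groups and a tissue difference of -1.19, and its other probe set gave -0.95. Cp, the copper-carrying ferroxidase ceruloplasmin, stood at -3.26, -2.41, -1.90 and -1.21 in aorta Eln+/+ and at -0.07, 0.19, -0.05 and -0.22 in aorta Eln+/-. The aorta groups of Cp were separate by 2.16 log2 units on average, the valve groups overlapped, and the tissue difference was -1.38 ± 0.61 (SE, limma adjusted p = 0.636). The other 7 Cp probe sets gave tissue differences of -0.90 to 0.09, 1 of them positive. Both belong to the iron and copper list, which had a median of -0.16 over 16 genes. The remaining lists had medians from -0.34 to 0.30. Proteoglycans were at -0.33, vasoactive genes at -0.34, heat shock and unfolded protein genes at -0.23 and fibroblast markers at -0.22. Matrix proteases were at -0.19, ribosomal proteins at -0.11, cell cycle at -0.10, erythroid markers at -0.09 and sex-linked genes at -0.10. Osteogenic genes were at 0.30, endothelial markers at 0.20, melanocyte markers at 0.21, Schwann cell and neuron markers at 0.18, epithelial markers of airway and thyroid at 0.17 and B cell markers at 0.15. The osteogenic members ran from -2.20 to 0.73. Of 11 of them, 1 was higher and 2 were lower at an unadjusted limma p under 0.05 (4.88% and 3.61% of all genes were). Immediate early, interferon, cytokine, lymphatic endothelial, and neutrophil and mast cell lists lay between -0.01 and 0.03.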

How the data were processed

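Expression was measured on Affymetrix whole-genome mouse arrays, 1 specimen per array. The deposited value is a ratio, from RMA-summarised signal per the submitters' processing notes; each probe set's median over the 16 arrays is 1, which was checked in the values, and how the authors divided it is not given in the sources used here. Of 45101 probe sets, 64 controls were left out, and log2 of the ratio was fitted without a pseudocount. In limma 3.58.1 (R 4.3.3) a mean was fitted for each of the 4 groups, contrasts were moderated with eBayes, and p was adjusted by Benjamini-Hochberg over 45037 probe sets with a limit of 0.05. The annotation gave 1 gene for 34945 probe sets, several for 932 and none for 9160. Symbols were matched through Entrez ID to the RefSeq gene table of GRCm38.p6. A gene was shown by the probe set of highest SD over the arrays, a choice that favours probe sets with differences, and its other probe sets were compared. Of 724 listed names, 671 were measured. Members, lists and tests were chosen with earlier results of these data known. Genes were named by rule: Eln, the 10 of lowest p in each direction, those with separate groups in both tissues, and up to 4 of lowest p per list; the text gives a part of them, with Nppa, Myl4, Myl7 and Sln added. Whether replicate numbers pair mice was checked: same-number correlations across tissues were -0.040 to 0.052 over 8 pairs, so no block was used. P-values measure the spread between these specimens. The fit was tested on simulated data. Alternatives covered scaling, filters, covariates, array weights, blocks and leaving out arrays.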

Additional observations from a re-analysis of the deposited data

Results flagged for a closer look

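In 32 of 428 checks of a group of 4 arrays (7.48%), 1 array lay apart from the other 3 by Dixon's test; chance gives about 1 in 20 such checks. Many were in valve Eln+/- replicate 3, the array with the highest cardiac mean. There Cyc1 was at 1.46 (others 0.73 to 0.74), Des at 1.75 (others 0.98 to 1.09), Acta2 at -3.20 (others -1.17 to -1.0) and Synpo2 at -2.11 (others -0.97 to -0.74), with list means of 0.87 for mitochondrial regulators (others 0.42 to 0.47) and 0.37 for skeletal muscle markers (others 0.14 to 0.17). Valve Eln+/- replicate 4 stood low for Nppa, at 0.86 (others 3.53 to 3.97), and for Esrrb, at 0.18.

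Among the Eln+/+ valves, replicate 4 stood apart for Atp5j at 0.57 and Cox6a2 at 1.24, replicate 2 for Wnt5a at 1.80 and for the T cell mean at -0.039, and replicate 3 for Dll4 at -0.16 and Cp at -1.86 (others 0.05 to 0.23).

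In the aorta, Eln+/- replicate 2 had Eln at -0.64 (others 0.0028 to 0.13), Adamts5 at 1.76 (others 0.26 to 0.38) and a smooth muscle mean of -0.81 (others 0.06 to 0.15). Eln+/- replicate 3 had Esrrb at -0.51, Cox6a2 at -1.01 (others -2.88 to -2.57) and a glycolysis mean of 0.036. Eln+/- replicate 4 had Col1a2 at 0.90, Bmpr1b at 1.96 and an elastic fibre mean of -0.19. Of the Eln+/+ aortas, replicate 2 had a cardiac mean of -1.05 (others -3.18 to -3.02) and a macrophage mean of -0.29, replicate 3 had Cant1 at 0.70, Lox at 0.13, Wnt5a at 0.48 and a TGF-beta mean of -0.24, replicate 4 had Txnrd3 at -0.33 and a collagen mean of -0.38, and replicate 1 had Tbx18 at -0.11.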

How the results depend on the processing

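The tissue difference gave 0 probe sets past an adjusted limma p of 0.05 in each of 32 alternatives, with a smallest adjusted p between 0.0537 and 0.865. The valve effect gave 1 with log2(ratio + 0.1), 1 with array weights and 10 with a sex-linked slope per tissue. When 1 array was left out, the valve effect gave 0 to 11, with 11 without valve Eln+/- replicate 4. The aorta effect gave 8 with that slope and 0 to 1 without 1 array. The mean effect gave 9 in the probe sets of higher SD and 3 with the sex-linked slope. When 1 array was left out, the mean effect gave 0 to 18. Of these, 18 came without aorta Eln+/+ replicate 4 and 15 without valve Eln+/+ replicate 2. Each of these is the only Eln+/+ array of its tissue with Xist above the Y-linked signal. Without it, genotype and that signal cannot be told apart in that tissue. Whether replicate numbers pair the samples was not settled. Of 8 same-number pairs 2 differed in sex-linked signal, replicates 2 and 4 of Eln+/+, and the block fits cannot exclude pairing of the others. With the replicate block fixed within genotype the smallest adjusted limma p was 0.640 with 0 called. As a random block it was 0.320 with 0 called, and Eln stayed at -0.85. With a cardiac slope per tissue, Eln turned to 0.60, Entpd7 to -0.18, Tbc1d7 to -0.35, Acta2 to 0.57, Synpo2 to 0.20, Tbx18 to 0.37, Krt18 to 0.21, Lox to 0.20, Mfap5 to 0.082, Gpc3 to 0.11 and Tbx5 to -0.048. With 1 cardiac slope Tbc1d7 was -0.015, and with the sex-linked slope per tissue Cep57l1 was 0.56 and Myh2 -0.047. As the median over probe sets, Hnrnpab was -0.033, Txnrd3 -0.028, Entpd7 -0.17, Cep57l1 0.088, Nrip1 -0.17 and Themis 0.030. The causes were not tested. Of 2832 single-gene values 66 turned sign, many of them of Nppa, Myl4, Myl7 and Sln, whose values lie near 0, and none passed the threshold. Of 640 list medians 38 turned. Scaling moved the median of all probe sets from 0.027 to 0.0023 (centred) or 0.028 (quantile).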
